A study of Homo sapiens with 17 samples.

Results

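In all, 10 genes that encode histone lysine methyltransferases were followed through 3 maps of N6-methyladenosine (m6A) in prostate cell lines. They were KMT2A, KMT2B, KMT2C, KMT2D, SETD1A, SETD1B, SETD2, NSD1, ASH1L and EZH2, and a region was counted for a gene where its deposited annotation placed it on an exon or intron of that gene. This gave 591 regions of 10 genes, out of 326944 regions of 16876 genes in all, with 209 regions in HPr1AR, 208 in LNCaP cells and 174 in 22Rv1. HPr1AR are non-malignant cells of the prostate epithelium with an androgen receptor, LNCaP are prostate cancer cells that respond to androgen, and 22Rv1 are prostate cancer cells that grow with little androgen. All cells were wild type and vehicle-treated, and RNA fragments were pulled down with an antibody against m6A or, as the background, with unspecific immunoglobulin G (IgG). The labels give 3 m6A and 3 IgG samples for HPr1AR, 3 m6A and 3 IgG samples for LNCaP, and 2 m6A and 3 IgG samples for 22Rv1.

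Histone lysine methyltransferases put methyl groups on the tails of histones and so mark chromatin as active or silent. The SETD1 and KMT2 proteins are the catalytic subunits of the COMPASS complexes and methylate H3K4, a mark of promoters and enhancers; SETD2, NSD1 and ASH1L methylate H3K36, a mark of transcribed genes; EZH2 is the catalytic subunit of Polycomb repressive complex PRC2, which methylates H3K27, a mark of silenced genes, and is often raised in advanced prostate cancer. The m6A base is a common modification of messenger RNA and is known to gather in long internal exons and near stop codons.

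Each table lists regions with no values for single samples. The spread over samples is therefore unknown, and differences between the cell lines were not tested. What can be read is the number of reads in a single window of 20 bp that stands for the region, in the numerator and in the reference of the authors' comparison; these are called m6A and IgG reads here after the names of the tables, since no header states the direction. The deposited log2 fold counts the IgG rate 2 times, so an ordinary read ratio was computed, scaled to depths of 5.13 M m6A and 11.7 M IgG reads in HPr1AR, 3.92 M and 8.87 M in LNCaP, and 3.30 M and 4.82 M in 22Rv1. A region was called higher in m6A where an exact two-sided binomial test of its reads, adjusted by the Benjamini-Hochberg method over all regions of the line, reached 0.05. Intervals are 95% exact (Clopper-Pearson) intervals and cover counting error only. Neither the intervals nor the p-values of the binomial test allow for the choice of 1 window among those of a region. In ratios a count of 0 was set to 3 reads. In 69 of the 591 regions the deposited p was 0. The counts given for their representative windows lie between 61 and 80 m6A reads, so the reads of these regions do not rank them. More than 1 pair of counts met the deposited values in 55 of 208 regions in LNCaP and in 7 of 209 in HPr1AR. Where p was 0 in such regions, the pair with the fewest reads, which has the lowest ratio, is given as a lower bound. In HPr1AR this holds for 4 regions, among them the leading region of KMT2A and the widest of ASH1L. In LNCaP 35 regions had no certain pair. Among them were the leading regions of KMT2A, KMT2B, KMT2C, KMT2D, SETD1B, SETD2, NSD1 and ASH1L. The LNCaP ratios and intervals of these leading regions are those of the fewest fitting reads, so the ratios are lower bounds, unlike most values of the other lines.

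As a check of the cell lines, exon regions were listed for 5 of 8 luminal genes in HPr1AR, 8 of 8 in LNCaP cells and 8 of 8 in 22Rv1, and for 5 of 5 basal genes in HPr1AR, 2 of 5 in LNCaP cells and 2 of 5 in 22Rv1. None of 3 markers of immune, endothelial and muscle cells had an exon region in any line.

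The start of a gene is where several of the most one-sided regions lay, so the 250 bases before the start are shown for SETD1A and ASH1L, whose first exon regions were higher in m6A in every line, and for EZH2, whose start was called in neither HPr1AR nor 22Rv1 and had no listed exon region in LNCaP. They are RefSeq sequences of GRCh38.p14, written 5′ to 3′ on the gene's strand, at chr16:30957504-30957753 on the + strand for SETD1A, chr1:155562804-155563053 on the - strand for ASH1L and chr7:148884292-148884541 on the - strand for EZH2. Capitals mark GGGCGG and its other strand CCGCCC, the core of the GC box bound by SP1.
SETD1A: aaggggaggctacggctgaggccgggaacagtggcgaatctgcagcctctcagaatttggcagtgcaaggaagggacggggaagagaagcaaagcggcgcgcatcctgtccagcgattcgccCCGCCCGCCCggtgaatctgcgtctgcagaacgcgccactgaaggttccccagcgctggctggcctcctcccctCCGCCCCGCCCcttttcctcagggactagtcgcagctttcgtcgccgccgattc
ASH1L: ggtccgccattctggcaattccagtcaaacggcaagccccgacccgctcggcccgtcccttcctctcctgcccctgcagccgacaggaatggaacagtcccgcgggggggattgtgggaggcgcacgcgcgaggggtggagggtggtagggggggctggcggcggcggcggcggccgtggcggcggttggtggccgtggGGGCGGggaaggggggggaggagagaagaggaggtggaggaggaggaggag
EZH2: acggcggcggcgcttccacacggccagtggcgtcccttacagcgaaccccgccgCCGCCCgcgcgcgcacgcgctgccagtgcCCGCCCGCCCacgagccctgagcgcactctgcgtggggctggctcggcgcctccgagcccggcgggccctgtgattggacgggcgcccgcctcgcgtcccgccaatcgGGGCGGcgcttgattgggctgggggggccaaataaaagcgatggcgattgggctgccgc
Promoter windows were found for 9 of the 10 genes, with 14 windows in all, and each of the 14 holds the motif on at least 1 strand. Of all 35116 windows of the same length, 42.6% hold it. The median of all windows is 58% G and C bases, against 65.2% for the shown window of SETD1A, 72.8% for ASH1L and 75.6% for EZH2. The part of base content in the motif count was not tested. NSD1 and EZH2 have more than 1 window each, and some of those of NSD1 overlap. The motif is at hand both before starts that were called higher in m6A and before those that were not called. The region positions of the tables do not match GRCh38, although the submitters' processing notes name hg38, and positions of regions are given below as the files list them.

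By the authors' own adjusted p of 0.05, 203 of 209 regions of the 10 genes passed in HPr1AR, 195 of 208 in LNCaP cells and 174 of 174 in 22Rv1, against a background of 96.5%, 95.4% and 99.3% of all regions of these lines. By the ordinary read ratio 78 regions in HPr1AR, 70 in LNCaP cells and 82 in 22Rv1 were higher in m6A, which is 37.3%, 33.7% and 47.1% of the regions of the 10 genes. The background over all regions in genes was 35%, 35.4% and 51.2%. No region of the 10 genes was lower in m6A in any line, where 0.0911%, 0.102% and 0.758% of all regions were lower. The share that was higher is therefore near that of other genes in each line. All calls rest on the depths given above. With the depth ratio set so that the median intron region shows no difference, 62 regions in HPr1AR and 59 in LNCaP were higher, but 8 in 22Rv1, where 43 were then lower. These higher regions are 29.7%, 28.4% and 4.60% of those of the 10 genes, beside 27.9%, 28.1% and 6.43% of all regions. Of all 77311 regions in 22Rv1, 20201 were then lower, so the change there runs through the whole line.

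The regions divided by where they lay. On exons, the read ratio was higher for 65 of 144 regions in HPr1AR, 62 of 138 in LNCaP cells and 71 of 139 in 22Rv1, beside a background of 43.5%, 42.2% and 49.8% of all exon regions. On introns, 13 of 65 were higher in HPr1AR, 8 of 70 in LNCaP cells and 11 of 35 in 22Rv1, beside 24.6%, 24.6% and 55.8% of all intron regions. Every one of the 10 genes had at least 1 higher exon region in each of the 3 lines, as had 90.9%, 87.9% and 88.8% of all genes with an exon region. At least 2 higher exon regions were found for 10 genes in HPr1AR and 9 in LNCaP and 22Rv1, beside 58.8%, 53.5% and 55.4% of all genes.

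**Figure D1:**
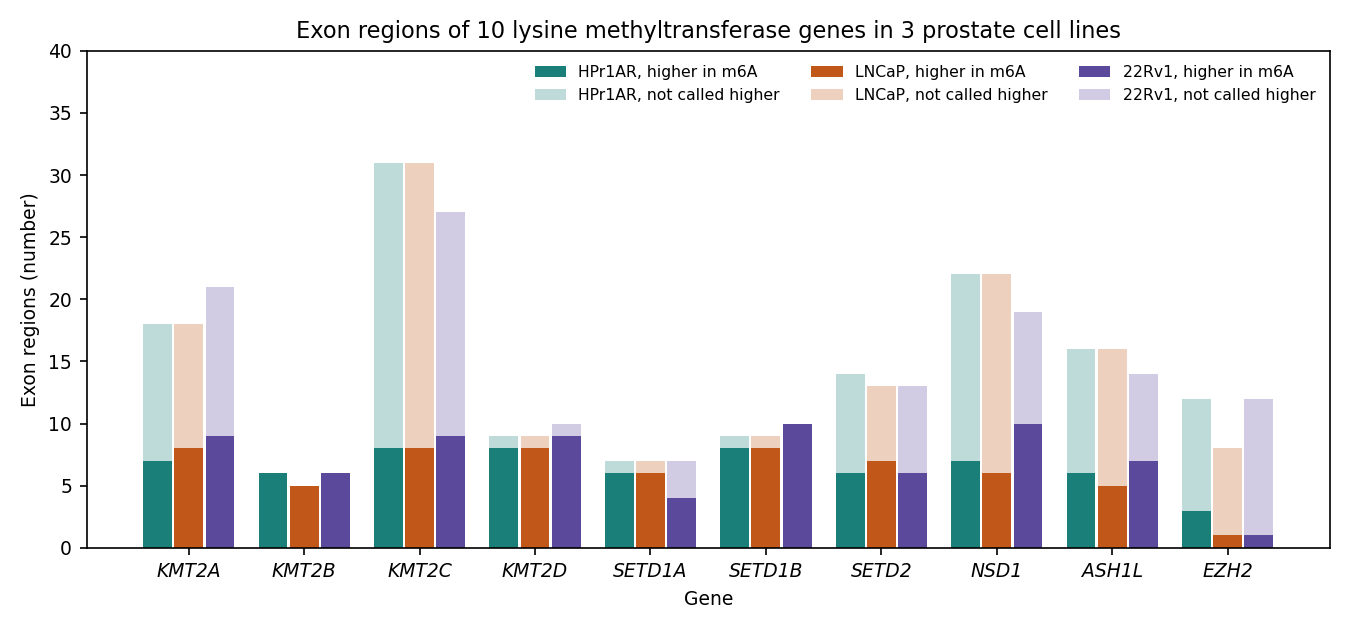
Number of exon regions per gene (y axis) in HPr1AR, LNCaP and 22Rv1, with the part called higher in m6A in full colour and the rest pale. All exon regions of KMT2B were higher in every line, while 3 of 12, 1 of 8 and 1 of 12 exon regions of EZH2 were.

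The genes differed widely in the share of their exon regions that was called. Over the 3 lines, all 17 exon regions of KMT2B were higher in m6A, as were 26 of 28 of SETD1B, 25 of 28 of KMT2D and 16 of 21 of SETD1A. The share was lower for SETD2 with 19 of 40, KMT2A with 24 of 57, ASH1L with 18 of 46, NSD1 with 23 of 63 and KMT2C with 25 of 89. EZH2 was last with 5 of 32. The first 4 genes had few, wide exon regions, with medians of 3460 bp for KMT2B, 1740 bp for SETD1B, 3815 bp for KMT2D and 990 bp for SETD1A, whereas the medians of the other 6 ran between 190 bp for NSD1 and 700 bp for KMT2A. No region of any table was wider than 5000 bp, and longer stretches, as in KMT2B and KMT2D, are listed as neighbouring regions that overlap by 10 bp, so the regions of a gene are not independent.

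Width and call went together. Exon regions of 1000 bp or more were higher in m6A in 43 of 47 cases in HPr1AR, 40 of 43 in LNCaP cells and 40 of 42 in 22Rv1, beside 78.6%, 79.8% and 83.6% of all exon regions of that width. Narrower exon regions were higher in 22 of 97 cases in HPr1AR, 22 of 95 in LNCaP cells and 31 of 97 in 22Rv1, beside 30.7%, 27.8% and 39.7% of all. The median width of the higher exon regions was 1870 bp in HPr1AR, 2040 bp in LNCaP and 1740 bp in 22Rv1, against 190 bp, 190 bp and 145 bp for the exon regions not called higher. The representative windows of the higher regions also held more reads, with a median of 72, 68 and 64 reads over both pull-downs against 15, 11 and 11.5. A wide region offers more windows to choose from and more reads to test, and the part of depth in this pattern was not tested.

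**Figure D2:**
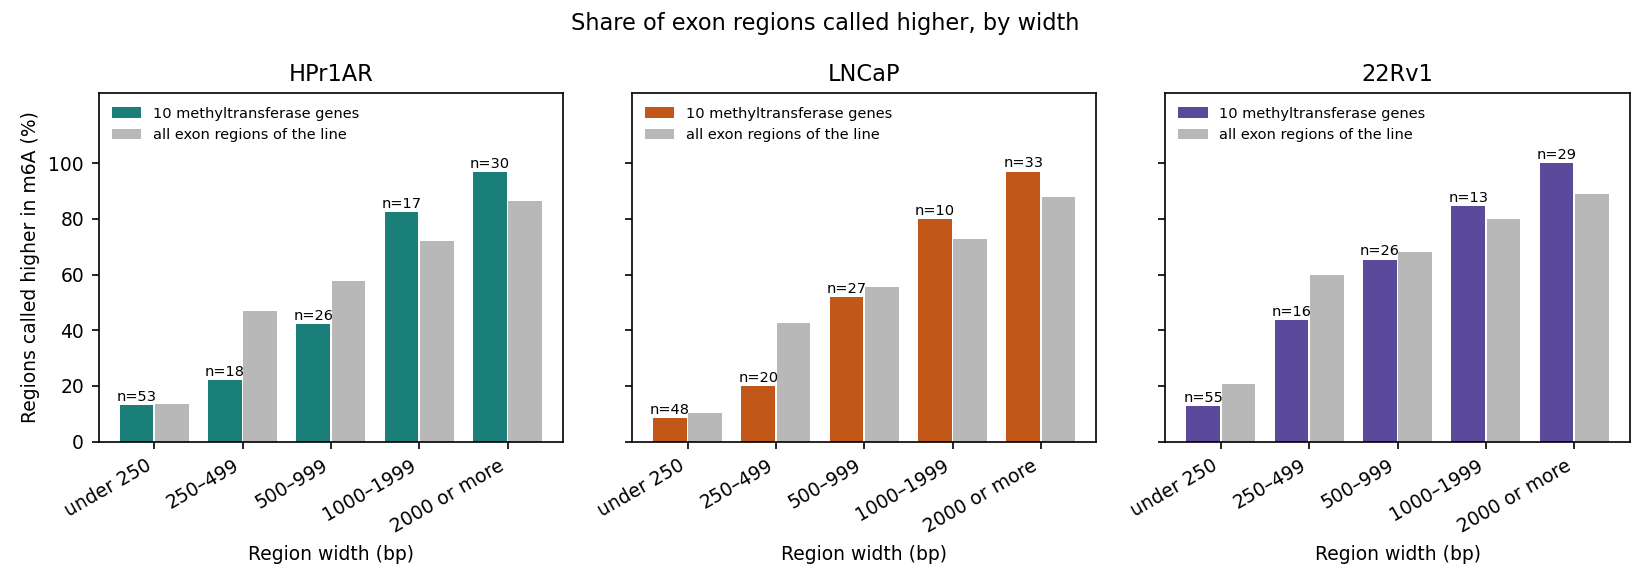
Percent of exon regions called higher in m6A (y axis) by region width in bp (x axis), for the 10 genes (coloured, number of regions above the bar) and for all exon regions of the same line (grey). In the widest class 29 of 30, 32 of 33 and 29 of 29 regions of the 10 genes were higher, and in the narrowest 7 of 53, 4 of 48 and 7 of 55.

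SETD1A and SETD1B are the catalytic subunits of the SET1 complexes, which lay down most of the H3K4 trimethylation at promoters. SETD1A had a region at its 5′ end, on its promoter and first exons, whose representative window held almost no IgG reads. The window held 57 m6A against 0 IgG reads at chr16:30968291-30970500 in HPr1AR, 69 against 0 at chr16:30968021-30970580 in LNCaP, and 38 against 1 at chr16:30968361-30970500 in 22Rv1. It does not show the ratio along the whole region. With the 0 IgG reads set to 3, the log2 read ratio was 5.44 in HPr1AR and 5.70 in LNCaP, and the exact intervals, which take the count as 0, begin at 5.09 and 5.36 and have no upper end. In 22Rv1 the log2 read ratio was 5.80 (3.23 to 11.14). The adjusted p of the exact binomial test was 2.80e-27, 9.16e-32 and 6.16e-13 in the 3 lines in that order. The next exon region, at chr16:30972571-30972870 in HPr1AR, was not called in any line, with 9 against 14 reads in HPr1AR, 6 against 2 in LNCaP and 7 against 4 in 22Rv1. The widest SETD1A region, chr16:30974741-30979020 in HPr1AR, was higher in all lines, with 66 against 8 reads in HPr1AR, 63 against 10 in LNCaP and 54 against 7 in 22Rv1. A region further on, chr16:30990461-30992510 in HPr1AR, was higher in all lines as well, with 61 against 8, 61 against 1 and 67 against 4 reads. The 3′-most SETD1A region was higher in HPr1AR with 22 against 6 reads and in LNCaP with 14 against 6. It was not called in 22Rv1, with 16 against 10 reads and a log2 read ratio of 1.23. The deposited annotation also names HSD3B7 there, as exon, intron or promoter.

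Almost all exon regions of SETD1B were higher in m6A, each by the 1 window that stands for it. Of its exon regions 8 of 9 were higher in HPr1AR, 8 of 9 in LNCaP cells and 10 of 10 in 22Rv1. Its leading region, the one with the smallest deposited p, was the same stretch in each line: chr12:122260381-122263520 in HPr1AR with 63 m6A against 9 IgG reads and a log2 read ratio of 4.0 (2.98 to 5.19), chr12:122260381-122263540 in LNCaP with 62 against 6 reads and 4.55 (3.34 to 6.05), and chr12:122260391-122262270 in 22Rv1 with 90 against 4 reads and 5.04 (3.63 to 6.95). Its 3′ end was higher as well, with 64 against 12 reads in HPr1AR, 57 against 7 in LNCaP and 73 against 12 in 22Rv1. The 1 exon region not called in HPr1AR and LNCaP was the small exon at chr12:122246101-122246230 in HPr1AR, with 7 against 5 reads there and 6 against 2 in LNCaP, and with 7 against 1 it was higher in 22Rv1. Its first region was higher in every line, with 52 against 20, 41 against 11 and 56 against 17 reads. The deposited annotation also names LINC01089 there, as exon, intron or promoter.

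KMT2A and KMT2B form COMPASS-like complexes with menin; KMT2A is the gene broken in MLL-rearranged leukaemia. KMT2B was listed as almost unbroken stretches, with 19.54 kb of exon regions in HPr1AR, 19.28 kb in LNCaP and 18.13 kb in 22Rv1. Each of these regions was called higher by its representative window, which does not show the ratio along the whole stretch. Its leading regions were chr19:36210301-36214380 in HPr1AR with 69 m6A against 12 IgG reads, chr19:36208091-36212660 in LNCaP with 61 against 3, and chr19:36222831-36224770 in 22Rv1 with 76 against 8. The log2 read ratios of these were 3.71 (2.82 to 4.73), 5.52 (3.91 to 7.84) and 3.80 (2.74 to 5.06). The 5′-most KMT2B exon region held 56 against 8 reads in HPr1AR and 50 against 3 in 22Rv1, and in LNCaP it was the leading region. In HPr1AR and 22Rv1 the deposited annotation also names ZBTB32 there, as exon, intron or promoter. The widest region was the leading one in LNCaP too, and was another in the other lines, chr19:36214371-36218450 in HPr1AR with 34 against 15 reads and chr19:36218041-36221770 in 22Rv1 with 23 against 2. The lowest KMT2B exon region in HPr1AR, chr19:36218441-36222520, held 28 against 25 reads with a log2 read ratio of 1.35. Its 3′ end was modest in each line, with 22 against 10 reads in HPr1AR, 15 against 12 in LNCaP and 27 against 8 in 22Rv1. A short intron region before that end, chr19:36225181-36225480 in HPr1AR, was also higher in all lines, with 7 against 1, 8 against 1 and 11 against 1 reads.

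The 2 ends of KMT2A differed in their calls. Its 5′-most region, on promoter and first exon, was not called in any line, with 11 m6A against 10 IgG reads in HPr1AR, 7 against 11 in LNCaP and 5 against 1 in 22Rv1. With so few reads, its log2 read ratios of 1.33 (-0.05 to 2.72), 0.53 (-1.08 to 2.02) and 2.87 (-0.29 to 8.43) are uncertain. Its 3′-most region, where the deposited annotation also names TTC36 (as exon, intron or promoter), was higher in all. It held 63 against 14 reads at chr11:118393881-118397440 in HPr1AR, 50 against 3 at chr11:118394571-118397420 in LNCaP and 51 against 8 at chr11:118394431-118397370 in 22Rv1. The log2 read ratios there were 3.36 (2.51 to 4.31), 5.24 (3.61 to 7.56) and 3.22 (2.13 to 4.51). The leading regions lay just before it, with 62 against 12 reads in HPr1AR, 63 against 7 in LNCaP and 74 against 12 in 22Rv1. Between the ends, a wide exon region at chr11:118342361-118345040 in HPr1AR was higher in every line, with 63 against 18, 64 against 11 and 69 against 12 reads. Of 40 narrow KMT2A exon regions over the 3 lines 8 were higher, and of 17 wide ones 16 were.

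KMT2C and KMT2D are the enhancer methyltransferases, which put monomethylation on H3K4 and are often mutated in prostate cancer. KMT2D had 8 of 9 exon regions higher in HPr1AR, 8 of 9 in LNCaP cells and 9 of 10 in 22Rv1. Neighbouring regions at chr12:49419781-49424260 and chr12:49424251-49428730 in HPr1AR held 62 m6A against 13 IgG reads and 64 against 24. The same stretches held 63 against 10 and 64 against 15 in LNCaP, and 74 against 11 and 90 against 11 in 22Rv1. Both ends of KMT2D were higher in each line. The 5′ end held 65 against 18, 69 against 19 and 56 against 16 reads. The 3′ end held 66 against 19, 73 against 25 and 36 against 5 reads, and the deposited annotation also names PRKAG1 there, as exon, intron or promoter. The single KMT2D exon region that was not called was the same in all tables, chr12:49439701-49440590 in HPr1AR, with 11 against 11 reads in HPr1AR, 11 against 13 in LNCaP and 17 against 11 in 22Rv1.

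KMT2C had the most regions and a low share of higher ones, 8 of 31 on exons in HPr1AR, 8 of 31 in LNCaP cells and 9 of 27 in 22Rv1. KMT2C has near-identical copies elsewhere in the genome, and how the authors counted reads that fit several places is not given in the sources used here, so its values are uncertain. Its higher regions lay mostly in the 3′ part of the gene. The widest, chr7:151876921-151880250 in HPr1AR, held 64 m6A against 22 IgG reads in HPr1AR, 66 against 24 in LNCaP and 72 against 10 in 22Rv1, with log2 read ratios of 2.73 (2.01 to 3.50), 2.64 (1.94 to 3.38) and 3.40 (2.43 to 4.52). Its neighbour at chr7:151873281-151875100 held 63 against 11, 66 against 10 and 68 against 4 reads. The leading KMT2C region in LNCaP was another, chr7:151845111-151846540, with 71 against 6 reads. The 5′ end, shared with FABP5P3, was higher in 22Rv1 with 15 against 5 reads, and not called in HPr1AR with 13 against 18 or in LNCaP with 9 against 17. The 3′-most region was wide in HPr1AR, chr7:151832371-151834300, and higher there with 58 against 15 reads. In LNCaP and 22Rv1 the 3′-most region was a narrow one within that stretch, with 5 against 4 and 5 against 6 reads, and was not called.

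**Figure D3:**
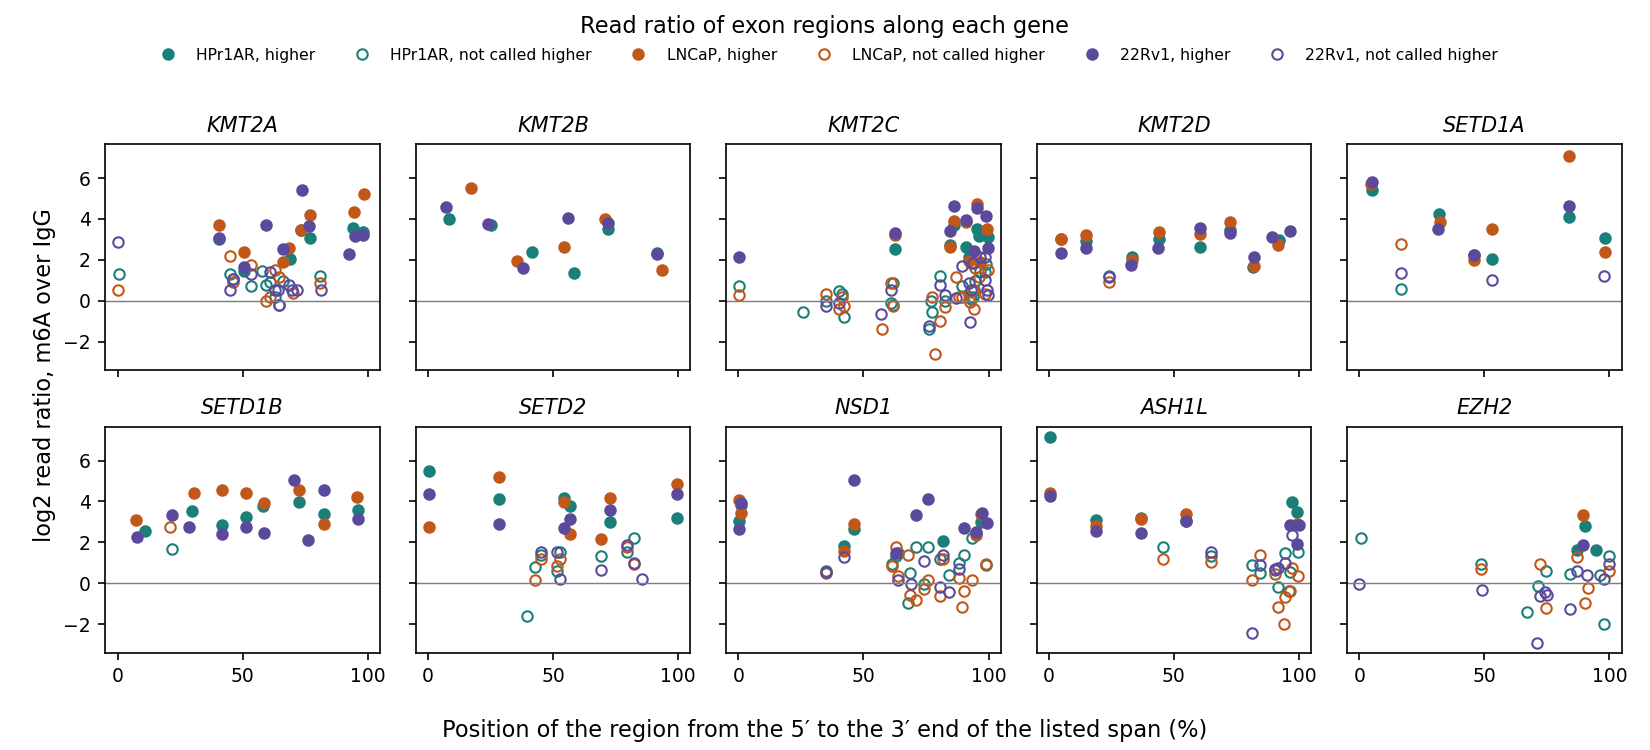
The log2 read ratio of m6A over IgG (y axis) of each exon region against its position from the 5′ to the 3′ end of the gene's listed span in percent (x axis), filled where called higher; counts of 0 are set to 3 reads. KMT2B, KMT2D and SETD1B have mostly filled points from end to end, KMT2C, NSD1 and KMT2A mix high and uncalled regions, and most EZH2 points are open.

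Among the H3K36 enzymes, SETD2, the only known source of bulk H3K36 trimethylation, was high at both ends and in its largest exon. Its 3′-most region held 65 m6A against 16 IgG reads at chr3:47058031-47059240 in HPr1AR, 63 against 5 at chr3:47058051-47059240 in LNCaP and 86 against 6 at chr3:47058081-47059240 in 22Rv1, with log2 read ratios of 3.21 (2.41 to 4.10), 4.83 (3.53 to 6.50) and 4.39 (3.21 to 5.87). The widest region, chr3:47161701-47166050 in HPr1AR and 22Rv1, held 61 against 8 reads in HPr1AR, 65 against 4 in LNCaP and 72 against 14 in 22Rv1. The leading region in HPr1AR was another, chr3:47125201-47125880 with 63 against 8 reads, and the stretch was higher in LNCaP with 63 against 9 and in 22Rv1 with 81 against 18. The representative window of the 5′ end region held few IgG reads, with 20 against 1 in HPr1AR, 9 against 0 in LNCaP and 28 against 2 in 22Rv1. But the deposited annotation also names KIF9-AS1, an antisense gene, there. Whether strand was used in counting is not given in the sources used here. None of the 15 intron regions of SETD2 was higher; the same held for the 3 of KMT2D.

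ASH1L, which opposes Polycomb silencing, had its leading region at its 5′ end in every line. There 62 m6A against 1 IgG reads were found at chr1:155531921-155533700 in HPr1AR, 66 against 7 at chr1:155531801-155533830 in LNCaP and 66 against 5 at chr1:155531911-155533650 in 22Rv1. The log2 read ratios were 7.14 (4.61 to 12.47), 4.41 (3.29 to 5.78) and 4.27 (2.97 to 5.94), and the adjusted p was 5.05e-28, 1.65e-24 and 7.12e-19 by the exact binomial test. The antisense gene ASH1L-AS1 shares the region, so its reads cannot be given to 1 of them. The widest exon region of the 10 genes was the large internal exon of ASH1L, chr1:155447591-155452250 in HPr1AR at 4660 bp, which was higher in each line with 63 against 16, 66 against 17 and 72 against 19 reads. The 3′-most region was not called in HPr1AR with 5 against 4 reads or in LNCaP with 4 against 7, and was higher in 22Rv1 with 10 against 2.

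NSD1, which dimethylates H3K36 and is mutated in Sotos syndrome, had 23 of 63 exon regions higher. Its 5′-most region, of about 200 bp in LNCaP and 22Rv1, was higher in all lines with 11 m6A against 3 IgG reads in HPr1AR, 15 against 2 in LNCaP and 17 against 4 in 22Rv1. Another 5′ region led in HPr1AR, chr5:176561761-176563550 with 69 against 11 reads, and in LNCaP, chr5:176561251-176563610 with 68 against 14. In 22Rv1 the leading region was near the 3′ end, chr5:176720821-176724280, with 82 against 11 reads and a log2 read ratio of 3.45 (2.53 to 4.50), and that stretch was also higher in HPr1AR with 63 against 18 and in LNCaP with 64 against 14. The 3′-most region was not called in HPr1AR with 13 against 16 reads, nor in LNCaP with 12 against 14, and was higher in 22Rv1 with 48 against 9. Its log2 read ratio was 0.89 (-0.29 to 2.04) in HPr1AR, 0.95 (-0.29 to 2.17) in LNCaP and 2.96 (1.92 to 4.18) in 22Rv1; the 22Rv1 region begins later, at chr5:176724581, so that the windows compared differ.

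EZH2 stood lowest of the 10 genes, with 3 of 12 exon regions higher in HPr1AR, 1 of 8 in LNCaP cells and 1 of 12 in 22Rv1. In HPr1AR its leading region, chr7:148511061-148513050, held 33 m6A against 11 IgG reads with a log2 read ratio of 2.78 (1.75 to 3.91) and an adjusted p of 2.31e-08 by the exact binomial test. A part of that stretch was higher in the other lines too, with 9 against 2 reads at chr7:148512521-148512980 in LNCaP and 15 against 6 at chr7:148512591-148512960 in 22Rv1. The leading region of LNCaP and 22Rv1 lay beside it. It held 17 against 16 reads at chr7:148513771-148515210 in LNCaP, with a log2 read ratio of 1.26 (0.19 to 2.35) and an adjusted p of 0.0521 by the exact binomial test, and 32 against 31 reads at chr7:148513791-148515220 in 22Rv1, with a log2 read ratio of 0.59 (-0.17 to 1.35), so it was called in neither. In LNCaP 3 pairs of counts fitted this region, and with the largest, 29 against 21, it would be called higher. In HPr1AR the same stretch was higher with 32 against 24 reads. The 3′ end of EZH2 was called in no line, with 12 against 11 reads in HPr1AR, 4 against 6 in LNCaP and 13 against 10 in 22Rv1. The 5′ end was not called in HPr1AR with 8 against 4 reads or in 22Rv1 with 4 against 6. In HPr1AR its log2 read ratio was 2.19 (0.29 to 4.37), with an adjusted p of 0.0547 by the exact binomial test. With so few reads, the missing call there does not show a lack of enrichment. No exon region was listed at the EZH2 start in LNCaP, where the 5′-most listed one, chr7:148543601-148544360 near the middle of the gene, was not called with 5 against 7 reads.

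**Figure D4:**
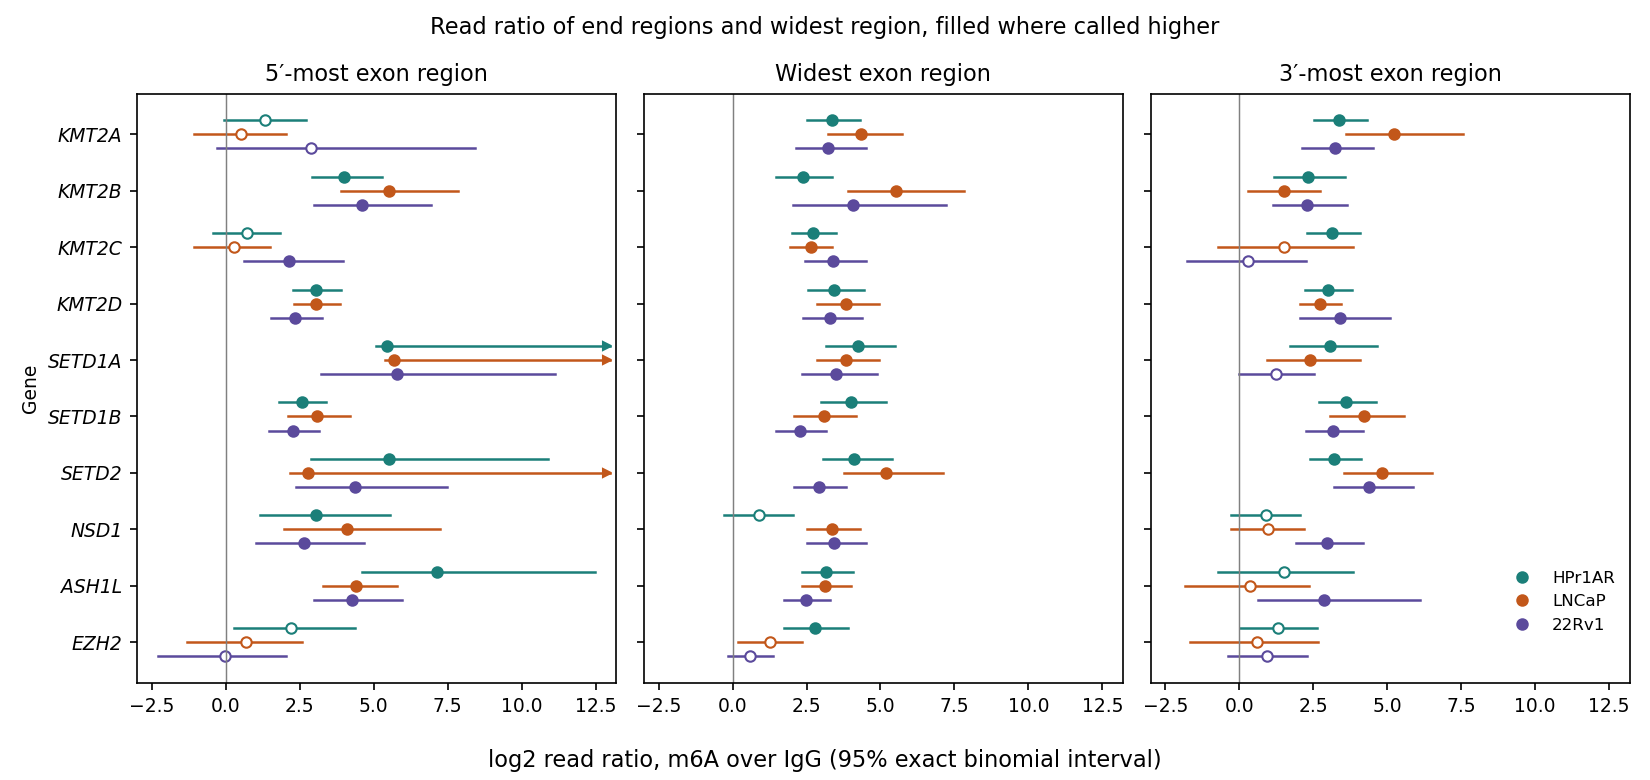
The log2 read ratio of m6A over IgG (x axis) with its 95% exact binomial interval for the 5′-most, the widest and the 3′-most listed exon region of each gene in HPr1AR, LNCaP and 22Rv1, filled where called higher; arrows mark intervals with no upper end because the IgG count was 0. The highest point is the 5′-most ASH1L region of HPr1AR at 7.14, and the 5′-most listed regions of KMT2A and EZH2 are open in every line, that of EZH2 in LNCaP lying near the middle of the gene.

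Calls were then compared by place. Regions of the 10 genes that overlap by at least 1 bp were joined into 248 loci, of which 141 hold an exon and 108 of these were listed in all 3 lines. The share listed in all 3 lines was 76.6% of exon loci of the 10 genes and 49.0% of the exon loci of all genes. Of the 108, 46 were higher in 3 lines, 6 in 2, 16 in 1 and 40 in none, which is 42.6%, 5.56%, 14.8% and 37.0%. Of the 39246 such loci of all genes, 46.3% were higher in 3 lines, 10.99% in 2, 10.91% in 1 and 31.8% in none. Of these loci, listed in all 3 lines, that were higher in at least 1 line, 67.6% in the 10 genes and 67.9% in all genes were higher in all 3. Among exon loci listed in all 3 lines, recurrence of the call was therefore near the background. The 16 comprised 3 that were higher in HPr1AR, 2 in LNCaP cells and 11 in 22Rv1, the line whose background of higher regions was also the largest. This split by line was not computed for the loci of all genes. NSD1 and KMT2C held 4 and 3 of the 11. Among the 11, the loci chr1:155313111-155314050 in ASH1L and chr7:151835291-151836900 in KMT2C had no certain pair of counts in LNCaP, so they are not shown to be higher in 22Rv1 alone. Of the regions in HPr1AR, 76.6% overlapped one in LNCaP and 71.8% one in 22Rv1, beside 52.9% and 41.2% of the regions of all genes. Of those in LNCaP, 78.4% overlapped one in HPr1AR and 68.8% one in 22Rv1, beside 69.8% and 53.2%. Of those in 22Rv1, 92.0% met one in HPr1AR and 89.1% one in LNCaP, beside 82.3% and 82.3%. Among regions higher in 1 line, the share overlapping a region higher in another line was above that of all genes in every pair. It was 80.5% beside 76.6% for 22Rv1 in HPr1AR and 87.2% beside 60.5% for HPr1AR in LNCaP. The regions of the 10 genes are also wide in part, and the part of width in these shares was not tested.

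Of 107 loci without an exon 68 were listed in 1 line alone, which is 63.6%, beside 76.4% of such loci of all genes. Another 19 were listed in all 3 lines, and 7 were higher in every line. The matching shares for all genes were not computed, so whether 7 is many cannot be told. Of the 7, 4 lie in ASH1L, 1 in KMT2A, 1 in KMT2B and 1 in NSD1. The NSD1 intron region, chr5:176692261-176693650 in HPr1AR, held 52 m6A against 5 IgG reads in HPr1AR, 25 against 1 in LNCaP and 52 against 1 in 22Rv1, with log2 read ratios of 4.57 (3.25 to 6.25), 5.82 (3.21 to 11.18) and 6.25 (3.71 to 11.58). The deepest in ASH1L, chr1:155437691-155438360 in HPr1AR, held 42 against 4, 35 against 3 and 61 against 7 reads. These loci are intronic by the deposited marks; whether an exon of another transcript lies there could not be looked up, because no annotation of the files' build was used here.

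The partners of these enzymes were read the same way. All 14 listed COMPASS subunits had a higher exon region in each line. Over the 3 lines MEN1 (menin), PAGR1 and CXXC1 each had 6 of 6 exon regions higher. RBBP5 and ASH2L, members of the shared core, were at 4 of 23 and 6 of 21. Of 10 other PRC2 genes, 9 had a higher exon region in HPr1AR, 8 in LNCaP cells and 8 in 22Rv1, and no exon region was listed under the symbol PHF1 in any line. JARID2, an accessory subunit, reached 23 of 33 exon regions and EZH1, the paralogue of EZH2, 5 of 11, while the core subunits SUZ12 and RBBP4 reached 3 of 21 and 4 of 27. Of 18 other lysine methyltransferases, 17 had a higher exon region in HPr1AR, 16 in LNCaP cells and 17 in 22Rv1, led by KMT5C with 8 of 8 and SUV39H1 with 9 of 11, which act on H4K20 and H3K9, and with SMYD2 at 2 of 9 and SMYD3 at 3 of 10 last. Of 17 lysine demethylases, which remove these marks, 17 in HPr1AR, 16 in LNCaP cells and 16 in 22Rv1 had one; KDM6B, which acts on H3K27, had 10 of 12 exon regions higher and KDM2B 18 of 31, against 3 of 18 for KDM1B and 5 of 28 for KDM1A. Of exon regions of the genes named, 1 region of KDM1A in LNCaP and 2 of RBBP4 in 22Rv1 were lower in m6A. These shares stand beside a background of 90.9%, 87.9% and 88.8% of genes with at least 1 higher exon region, so that having one does not set any of the lists apart.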

How the data were processed

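RNA from 3 prostate cell lines was pulled down with an m6A enrichment kit or IgG; the labels name 17 samples in 6 groups. The treatment protocol of the labels states biological triplicates, but m6A replicate 2 of 22Rv1 is not among the labels, and which samples entered each table is not stated.

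The authors deposited 1 table per line (3 in all) of regions made of neighbouring windows, with a log2 fold, a p-value and an adjusted p-value per region and marks for exons, introns and promoters of genes. The submitters' processing notes name hg38. For aligner, window counter and test, names and settings were not given in the sources used here. Values of single samples are in none of the columns (0 left unused).

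In the deposited log2 fold, the log2 of the numerator reads a of 1 window of 20 bp has 2 times the log2 of its reference reads b taken off, each with a small prior, before a constant is added; windows lie 10 bp apart. The constants were fitted per line on single-window regions of at most 3 numerator reads (4646, 3427 and 1011 regions in HPr1AR, LNCaP and 22Rv1), and depths were derived from the priors on the assumption that these scale with depth. Whole reads up to 150 were then sought that give each fold within 2e-04, 0.006 and 3.22e-04 log2 units and a p-value within the limits of the matching likelihood ratio test; of several pairs, the one nearest to the usual relation of deposited and predicted p was taken. They were found for 100%, 98.6% and 99.98% of regions with p above 0. After a random shift of the folds, pairs were still found for 1.47%, 20.5% and 1.98% of these, and for 94.6% of LNCaP regions with p of 0, so LNCaP counts are the least certain. A region without a certain pair is undetermined unless its fewest possible reads suffice for a call (3 regions of the 10 genes, in LNCaP).

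Read ratios were tested with an exact two-sided binomial test against the depths, with Benjamini-Hochberg adjustment over all regions of a line. Such p-values measure counting error within a table, not the spread between samples. They do not allow for the choice of 1 window among those of a region. The steps were tested on simulated data. The genes, lists and rules were chosen with earlier results of these data known. All 10 genes are named, each by its leading region, its widest and its end exon regions (the end regions were added after values were seen). Of the partner lists, the 2 genes with the highest and the 2 with the lowest share among those with at least 5 exon regions are named. CXXC1, which tied for the highest share, is named too. Older symbols were matched through a RefSeq table (GRCh38.p14). Python 3.11.15, numpy 2.4.6, pandas 2.3.3, scipy 1.17.1 and matplotlib 3.10.9 were used.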

Additional observations from a re-analysis of the deposited data

How the results depend on the processing

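No paired analysis was possible because the tables hold no value per sample, and no replicate could be left out. With the ordinary read ratio in place of the authors' adjusted p, the count of passing regions of the 10 genes fell to 78 in HPr1AR, against 203, to 70 in LNCaP, against 195, and to 82 in 22Rv1, against 174; both the weight of the IgG rate and the test differ between these calls, and the cause was not tested. With the depth ratio centred on introns, 8 regions of 22Rv1 were higher and 43 lower, after a shift of 2.87 log2 units. In HPr1AR 62 were higher and in LNCaP 59, after shifts of 0.74 and 0.69. Over all regions, 6.43% in 22Rv1, 27.9% in HPr1AR and 28.1% in LNCaP were then higher, and 20201 regions of 22Rv1 were lower. Every statement on 22Rv1 being higher rests on the derived depths, which were not checked against sequenced reads. Of LNCaP regions with 1 fitting pair of counts, 26 were higher; with the pair of fewest reads the count was 70 and with the pair of most reads 74. In 5 regions of the 10 genes (4 in LNCaP, 1 in HPr1AR), the pair with the most reads turns an uncalled region into a higher one. These alternatives of pairs were chosen after seeing the data. With a reciprocal overlap of 50%, the shares were 63.2% (HPr1AR in LNCaP), 56.5% (HPr1AR in 22Rv1), 63.5% (LNCaP in HPr1AR), 55.3% (LNCaP in 22Rv1), 67.8% (22Rv1 in HPr1AR) and 66.1% (22Rv1 in LNCaP). Of the regions higher in the first line, 87.2%, 80.8%, 94.3%, 90%, 80.5% and 82.9%, in the same order, overlapped a region higher in the other, beside 60.5%, 57.8%, 76.4%, 70.0%, 76.6% and 74.0% over all genes. Of 51 recomputed values, 17 were labelled as moved, all given above. The overlap shares among these 17 also lay within 1.5 times of the values reported. The other 34 values stayed within 1.5 times of the value reported. These 34 came from a threshold of 0.01, exon marks alone, regions of 2 or more windows, regions of 1 gene, a shared read rate of 0.739 CPM (counts scaled by depth), 2 higher exon regions per gene, the pairs of fewest and of most reads, the intron-centred depth ratio in HPr1AR and LNCaP, and regions with 1 fitting pair in HPr1AR and 22Rv1.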

Other observations

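Regions marked as promoter of one of the 10 genes, but neither exon nor intron, were left out above. There were 9: 3 in HPr1AR, 5 in LNCaP and 1 in 22Rv1. In LNCaP one before KMT2B, chr19:36203541-36208100, held 73 m6A against 1 IgG reads with a log2 read ratio of 7.37 (4.84 to 12.69), and it also lies on exons of ZBTB32. In HPr1AR one before SETD1B, chr12:122238481-122241450, held 21 against 1 reads with a log2 read ratio of 5.58 (2.95 to 10.95), and it also lies on an exon of LINC01089. Short regions of 7 against 0 reads before KMT2C in HPr1AR, shared with FABP5P3, and of 6 against 0 before KMT2A in LNCaP were higher too. The other 5 were not called: 5 against 2 reads before KMT2D in HPr1AR and 3 against 3 in LNCaP, 5 against 3 before SETD1A and 1 against 0 before NSD1 in LNCaP, and 4 against 0 before KMT2C in 22Rv1.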
